A study of Mus musculus with 9 samples.

Results

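The aryl hydrocarbon receptor gene Ahr, its partner Arnt and 6 of its classical target genes (Ahrr, Tiparp, Cyp1a1, Cyp1b1, Nqo1 and Aldh3a1) were followed in tumours of a mouse melanoma line whose histamine production had been changed. They are 8 of the 16832 genes named on the array and had 9 of its 41174 distinct probes. A probe was kept where its tumour signal was marked as well above background on at least 3 of 9 arrays, which left 7 probes of 6 genes among the 26870 kept probes of the whole array. All 7 kept probes carried that mark on 9 of 9 arrays, and the 2 probes left out, those of Cyp1a1 and Aldh3a1, carried it on 0 of 9. The set was assembled because Ahr had stood higher in both modified lines than in the unmodified line, so the set was chosen by the values of Ahr against HDC-M. They are described here without a test, and the question was whether the partner and the targets moved with Ahr.

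The 3 groups were tumours of B16-F10 variants, a mouse melanoma line, in which the level of the histamine-forming enzyme L-histidine decarboxylase (HDC) had been altered. HDC-A cells have a diminished, HDC-M cells an unmodified and HDC-S cells an enhanced capacity to make and secrete histamine, and each group derives from 1 line variant. Each group had 6 tumours, whose RNA was combined in 3 pools of 2 tumours, so the arrays measured pools and not single tumours. Each pool was labelled with Cy5 and hybridised beside Cy3-labelled RNA of cultured HDC-M cells, the same reference on all 9 arrays. A log2 ratio therefore compares a tumour pool with cultured cells. In a log2 difference between groups the reference cancels only as far as its Cy3 signal reads alike on every array. For a dim probe of Arnt and that of Ahrr, differences from HDC-M changed when the Cy5 channel was used alone, as given below. The strain, sex and age of the host mice are not given in the sources used here.

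The receptor is a transcription factor of the bHLH-PAS family that waits in the cytoplasm with a chaperone complex that includes HSP90 and p23. A ligand, such as dioxin or a tryptophan metabolite, sends it to the nucleus, where it pairs with ARNT and binds xenobiotic response elements. It switches on the cytochrome P450 genes Cyp1a1 and Cyp1b1, the detoxifying enzymes Nqo1 and Aldh3a1, and its own brakes, the repressor Ahrr and the ADP-ribosyltransferase Tiparp. The amount of receptor RNA and the activity of the receptor are separate quantities, and these arrays measured RNA alone.

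The binding core of the receptor with ARNT is GCGTG, and the 250 bases upstream of 4 targets are shown because they hold it in different numbers and places. The sequences come from RefSeq on the mouse build GRCm38.p6, run 5′ to 3′ on the strand of the gene and end at the base before 1 transcription start of the gene. For Cyp1a1 and Arnt that start lies inside the annotated gene, which begins at chr9:57687928 and chr3:95434367, and distances refer to the start used. Capitals mark GCGTG or, where the core lies on the other strand, CACGC.
Ahrr: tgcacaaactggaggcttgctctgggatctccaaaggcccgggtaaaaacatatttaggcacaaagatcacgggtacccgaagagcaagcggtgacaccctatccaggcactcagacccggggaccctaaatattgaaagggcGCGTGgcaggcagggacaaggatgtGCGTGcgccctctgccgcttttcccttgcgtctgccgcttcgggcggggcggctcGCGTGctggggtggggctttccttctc
Tiparp: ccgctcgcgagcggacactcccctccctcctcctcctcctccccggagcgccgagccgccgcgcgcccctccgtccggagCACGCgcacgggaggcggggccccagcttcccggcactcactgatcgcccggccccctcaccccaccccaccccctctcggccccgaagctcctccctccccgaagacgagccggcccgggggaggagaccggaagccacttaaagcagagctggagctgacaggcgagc
Cyp1a1: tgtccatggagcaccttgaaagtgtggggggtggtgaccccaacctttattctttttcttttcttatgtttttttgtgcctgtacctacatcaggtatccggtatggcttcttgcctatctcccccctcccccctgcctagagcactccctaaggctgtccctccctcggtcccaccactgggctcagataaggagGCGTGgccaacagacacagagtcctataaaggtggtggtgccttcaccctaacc
Cyp1b1: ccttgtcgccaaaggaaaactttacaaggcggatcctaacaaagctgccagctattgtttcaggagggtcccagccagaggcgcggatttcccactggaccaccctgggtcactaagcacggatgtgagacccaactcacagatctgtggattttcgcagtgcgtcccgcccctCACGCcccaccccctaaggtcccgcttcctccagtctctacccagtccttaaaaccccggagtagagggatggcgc
The Ahrr window (chr13:74292332-74292581, minus strand) held 3 cores, beginning 107, 82 and 27 bases before the start. The Tiparp window (chr3:65528197-65528446, plus strand) held 1 core on the opposite strand, 170 bases before the start. The Cyp1a1 window (chr9:57697363-57697612, plus strand) held 1 core 54 bases before the start, and the Cyp1b1 window (chr17:79715062-79715311, minus strand) held 1 on the opposite strand at 76 bases. Arnt, the partner itself, also had 1 core, 29 bases before its start, and the Nqo1 window had 0. Windows were available for 6 of the 8 genes, without Ahr and Aldh3a1. On both strands together 28.2% of 32851 upstream windows of the same length held a core and 2.77% held at least 3, and no 2 cores overlapped in these windows. The longer motif TNGCGTG was found in 4.1% of windows and, among these genes, in that of Ahrr alone, at the core nearest the start. A match describes the letters of the window and does not show binding.

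The histamine enzyme itself was read by 1 dim probe. The log2 ratio of Hdc was 0.15, 0.15 and 0.42 in the HDC-A pools, 0.60, 0.48 and 0.063 in the HDC-M pools and 0.44, 0.33 and 0.61 in the HDC-S pools. The 3 groups overlapped, and limma gave adjusted p = 0.864 for HDC-S and 0.696 for HDC-A against HDC-M, so this probe did not separate the labelled lines. Where the probe lies relative to the modification is not given in the sources used here. Between 58% and 69.7% of probe spots were well above background in Cy5, and log2 ratios of arrays of the same group correlated at 0.899 to 0.950 across probes. The arrays were scanned on 2 days per the file headers, replicates 1 and 2 of every group on the first and replicate 3 of every group on the second. In bulk tumour RNA, fewer cells of a type and less RNA per cell cannot be told apart.

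Ahr stood lowest in the unmodified tumours. Its log2 ratio was 0.34, 0.13 and 0.37 in the HDC-M pools, with a mean of 0.28 ± 0.13 (SD, n = 3). It was 0.81, 1.41 and 1.20 in the HDC-A pools, with a mean of 1.14 ± 0.31, and 1.35, 1.82 and 1.33 in the HDC-S pools, with a mean of 1.50 ± 0.28. All 6 pools of the modified lines lay above all 3 HDC-M pools, while the HDC-A and HDC-S pools overlapped. The difference from HDC-M was 1.22 on the log2 scale in HDC-S, a 2.33-fold level, and 0.86 in HDC-A, a 1.81-fold level. Both values rest on the same 3 HDC-M pools and on the single probe for the gene.

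The 2 modified lines could be compared with each other by a test, since that difference did not choose the set. Ahr was 0.36 higher in HDC-S than in HDC-A on the log2 scale (SE 0.17, 95% interval -0.025 to 0.74), which did not pass (limma, adjusted p = 0.294). The order of the mean levels was therefore HDC-S, HDC-A and HDC-M, with the first 2 not separated beyond their spread. On the first scan day alone the Ahr difference from HDC-M was 1.35 for HDC-S and 0.87 for HDC-A, and on the second day, with 1 array a group, it was 0.96 and 0.83.

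The raw brightness shows which dye carried these values. Over the median of the negative control spots of its array, the Ahr probe read 3.79, 3.81 and 4.44 times in Cy5 for the HDC-M pools, 5.48, 7.02 and 6.999 times for the HDC-A pools and 7.87, 10.4 and 6.91 times for the HDC-S pools. In the Cy3 reference it stayed between 1.58 and 1.73 times on all 9 arrays. The spread between pools was thus in the tumour dye, and the HDC-M pools were the 3 dimmest of the 9.

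**Figure D1:**
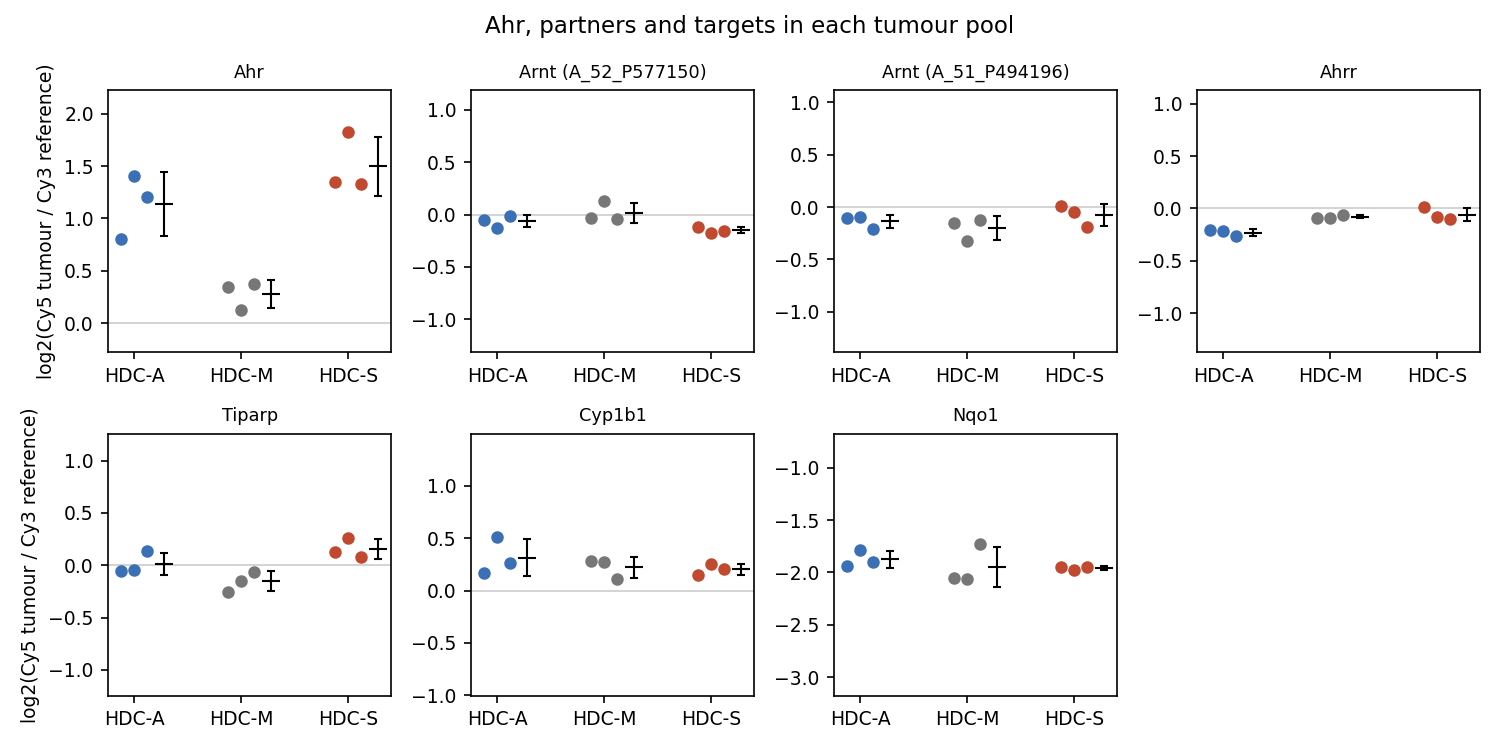
The log2 ratio of Cy5 tumour over Cy3 reference is plotted for each of the 7 kept probes (1 panel a probe), with 1 point for each pool and, beside it, the group mean with its SD (n = 3); every panel spans the same log2 range around its own mean. In the Ahr panel the HDC-M pools lie between 0.13 and 0.37 and the other 6 pools between 0.81 and 1.82, and in the other panels the group means lie close together.

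None of the other genes passed the test in any comparison. In HDC-S against HDC-M, 0 of the 6 probes of Arnt, Ahrr, Tiparp, Cyp1b1 and Nqo1 passed an adjusted p of 0.05 (limma, Benjamini-Hochberg over all kept probes), where 0.681% of all kept probes passed. In HDC-A against HDC-M 0 of 6 passed beside 1.44% of all probes, in HDC-S against HDC-A 0 of 6 beside 5.26%, and in the mean of both modified lines against HDC-M 0 of 6 beside 0.179%. At an unadjusted p under 0.05 there were 2 probes in HDC-S against HDC-M, those of Tiparp and 1 of Arnt, beside 14.5% of all probes. There was 1 in HDC-A against HDC-M (Ahrr, beside 15.5%), 1 in HDC-S against HDC-A (Ahrr, beside 19.4%) and 1 in the mean of both modified lines (Tiparp, beside 13.2%). Counts this small on 6 probes cannot be set apart from those shares.

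Arnt, the obligate partner, was read by 2 kept probes whose differences from HDC-M had opposite signs, and neither passed the test. The brighter probe, A_51_P494196, had log2 ratios of -0.15, -0.33 and -0.12 in HDC-M, -0.10, -0.099 and -0.21 in HDC-A and 0.013, -0.047 and -0.19 in HDC-S, and all groups overlapped. Its difference from HDC-M was 0.12 (95% interval -0.052 to 0.30, adjusted p = 0.516) in HDC-S and 0.061 (-0.12 to 0.24, adjusted p = 0.776) in HDC-A. The dimmer probe, A_52_P577150, had -0.033, 0.13 and -0.042 in HDC-M, -0.048, -0.13 and -0.014 in HDC-A and -0.11, -0.18 and -0.15 in HDC-S. Here the HDC-S pools lay below the HDC-M pools without overlap, by 0.17 (95% interval -0.31 to -0.021), but the adjusted p was 0.277. In HDC-A the dimmer probe was 0.080 lower than in HDC-M (adjusted p = 0.618). Without the reference channel the difference of that probe was 0.0099 in HDC-S and 0.067 in HDC-A. Another probe, a cDNA that the array annotation describes as an Arnt product but gives no symbol, fell outside the rule and differed from HDC-M by 0.13 in HDC-S (adjusted p = 0.332) and by 0.063 in HDC-A (adjusted p = 0.672).

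Tiparp, which restrains the receptor by ADP-ribosylating it, came nearest to following Ahr. Its log2 ratio was -0.25, -0.15 and -0.063 in HDC-M, -0.057, -0.049 and 0.13 in HDC-A and 0.13, 0.26 and 0.074 in HDC-S. The HDC-M pools were the 3 lowest of the 9 in this ratio, and HDC-A overlapped with HDC-S. The raw Cy5 signal over the negative controls overlapped between all groups. It was 10.4, 17.6 and 19.1 times in HDC-M, 14.8, 12.7 and 21.6 in HDC-A and 16.7, 15.4 and 17.2 in HDC-S. Cy3 varied as well, from 5.30 to 8.60 times. The difference from HDC-M was 0.31 on the log2 scale in HDC-S (SE 0.081, 95% interval 0.13 to 0.49, a 1.24-fold level) with adjusted p = 0.125, and 0.16 in HDC-A (SE 0.081, -0.018 to 0.35, a 1.12-fold level) with adjusted p = 0.381. HDC-S against HDC-A gave 0.15 (adjusted p = 0.384). The HDC-S difference passed with array weights (0.35, adjusted p = 0.0449), and centring each array on its median in place of loess turned it to -0.10 in HDC-S and -0.24 in HDC-A. That centring also moved the median of all probes to -0.12 in HDC-S and -0.11 in HDC-A against HDC-M, from 0.0092 and 0.0062.

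Of all kept probes, 21.6% had groups without overlap in HDC-S against HDC-M, 20.1% in HDC-A against HDC-M and 23.8% in HDC-S against HDC-A. Among the 6 probes there were 2 in each comparison. They were Tiparp higher and the dimmer Arnt probe lower in HDC-S against HDC-M, and Tiparp higher and Ahrr lower in HDC-A against HDC-M. In HDC-S against HDC-A they were Ahrr higher and Nqo1 lower.

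Ahrr, which competes with the receptor for ARNT, was faint. Its log2 ratio was -0.088, -0.090 and -0.063 in HDC-M, -0.21, -0.22 and -0.27 in HDC-A and 0.014, -0.083 and -0.10 in HDC-S. The HDC-A pools were the 3 lowest in this ratio, and HDC-M overlapped with HDC-S. In Cy5 over the negative controls, HDC-A read 1.25, 1.15 and 1.26 times and HDC-M 1.14, 1.23 and 1.26 times, which overlapped. With the Cy5 channel alone the HDC-A difference from HDC-M was -0.0092. Ahrr was 0.17 higher in HDC-S than in HDC-A (95% interval 0.050 to 0.30, adjusted p = 0.110), 0.15 lower in HDC-A than in HDC-M (-0.27 to -0.028, adjusted p = 0.218) and 0.022 higher in HDC-S than in HDC-M (-0.10 to 0.15, adjusted p = 0.904). Its Cy5 signal was only 1.14 to 1.46 times the negative controls, and with the scanner software's own ratios, which carry no offset, the HDC-S difference from HDC-M was 0.46 (adjusted p = 0.310).

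Cyp1b1, a monooxygenase of xenobiotics and oestrogens, had log2 ratios of 0.28, 0.28 and 0.11 in HDC-M, 0.16, 0.51 and 0.27 in HDC-A and 0.15, 0.25 and 0.21 in HDC-S. The groups overlapped in all 3 comparisons. The difference from HDC-M was -0.021 in HDC-S (95% interval -0.23 to 0.19, adjusted p = 0.951) and 0.091 in HDC-A (-0.12 to 0.30, adjusted p = 0.708), and HDC-S against HDC-A gave -0.11 (adjusted p = 0.600). The highest of the 9 values was that of HDC-A replicate 2, and without that pool the HDC-A difference from HDC-M was -0.0081.

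Nqo1, a quinone reductase under the control of both the receptor and the stress factor NRF2, was far below the reference in every pool. Its log2 ratio was -2.05, -2.07 and -1.72 in HDC-M, -1.94, -1.79 and -1.90 in HDC-A and -1.95, -1.98 and -1.95 in HDC-S. HDC-M replicate 3 was the highest of the 9 and the other 2 HDC-M pools the lowest, so HDC-M enclosed both other groups. The difference from HDC-M was -0.0098 in HDC-S (95% interval -0.22 to 0.20, adjusted p = 0.979) and 0.073 in HDC-A (-0.14 to 0.28, adjusted p = 0.773), and HDC-S against HDC-A gave -0.083 (adjusted p = 0.721). The Cy5 signal was 1.86 to 2.35 times the negative controls and the Cy3 signal 3.26 to 4.04 times.

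**Figure D2:**
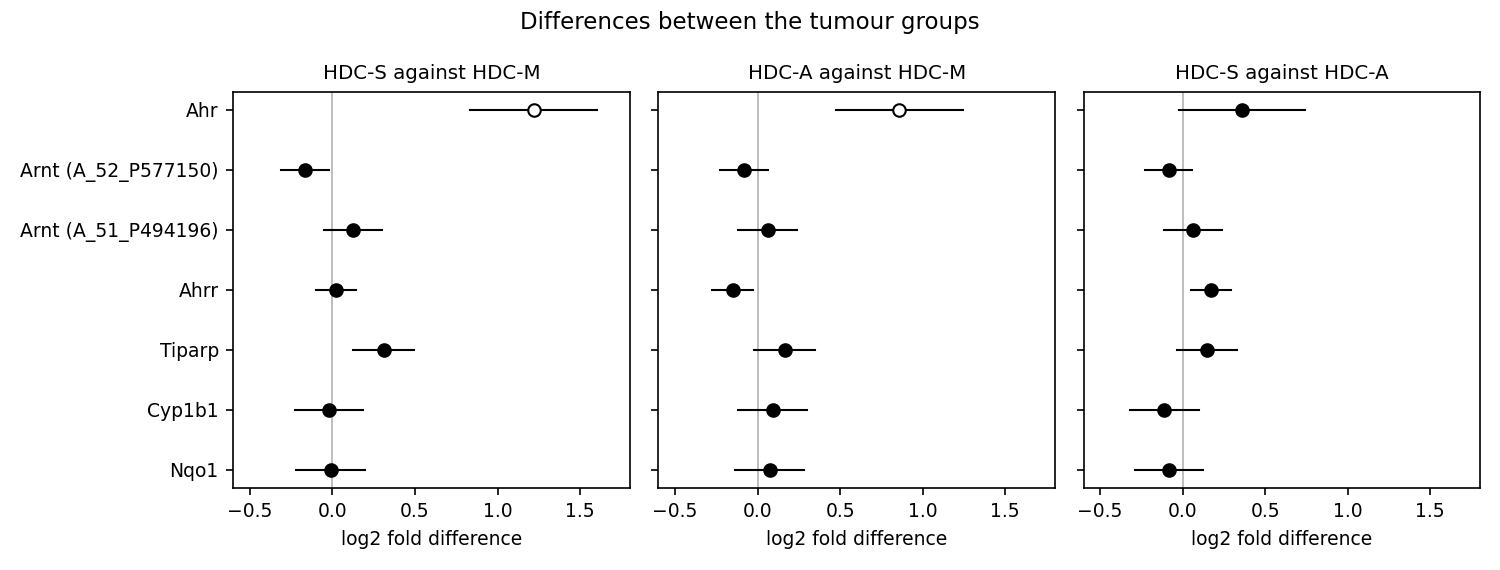
The log2 fold difference of each kept probe is plotted with its 95% interval for the 3 comparisons between groups, with open circles for the 2 values of Ahr that chose the set. The intervals at the open circles are not a test, since those values were selected. Against HDC-M, the intervals of the probes other than Ahr's end at or below 0.49 in HDC-S and 0.35 in HDC-A.

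In HDC-S against HDC-M the highest upper limit of a 95% interval among the 6 other probes was 0.49, that of Tiparp. In HDC-A against HDC-M the highest was 0.35, again that of Tiparp. These limits hold for the processing used here and not for others, since with the arrays brought to a common scale Nqo1 was 0.66 higher in HDC-A and 0.51 higher in HDC-S than in HDC-M (adjusted p = 0.285 and 0.420). The offset of 50 added in the background correction draws the ratios of dim probes towards 0, which concerns Ahrr, Cyp1b1 and both Arnt probes, so for these the limits hold for the compressed scale only.

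Cyp1a1, the most widely used readout of receptor activity, was not well above background in any tumour pool. Its Cy5 signal was 0.949, 0.987 and 0.994 times the median of the negative controls in HDC-A, and over all 9 pools it lay between 0.948 and 1.07 times. The 95th percentile of the negative controls themselves was 1.08 to 1.11 times their median in Cy5, so every pool lay within their range. In Cy3, the cultured HDC-M cells gave 1.83 to 2.16 times on the 9 arrays, above the 95th percentile of 1.05 to 1.08 times in that dye. Where a tumour value was lower, the lowest Cy5 value marked well above background on its array replaced it. The mean was then 6.06 on the log2 scale, while the Aldh3a1 probe, below detection, read 6.15, so this limit is lenient. With it the reference was 3.37-fold higher than the tumour pools, which is not a firm lower bound (n = 9 arrays, no test). Without a dye swap, tumour against culture and Cy5 against Cy3 cannot be told apart in this value. Between the tumour groups no fold is given, since all 3 were below detection.

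Aldh3a1, an aldehyde dehydrogenase inducible through the receptor, was below detection in both dyes. Its Cy5 signal was 0.965 to 1.05 times and its Cy3 signal 0.887 to 1.08 times the negative controls. No fold can be given for it.

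**Figure D3:**
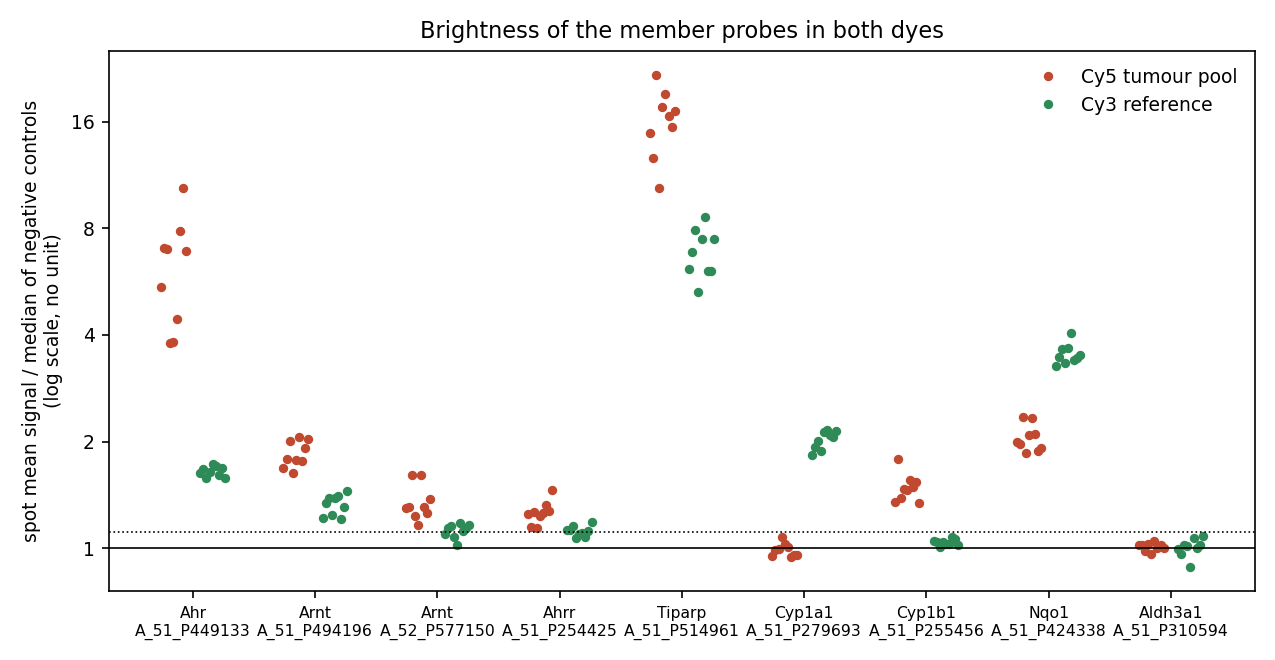
The mean spot signal divided by the median of the negative control spots of the same array and dye is plotted on a log axis for the 9 probes of the 8 genes, with 1 point per array for the Cy5 tumour pools and the Cy3 reference; the solid line marks 1 and the dotted line the highest 95th percentile of the negative controls, 1.11. Ahr and Tiparp stand clear of the negative controls in Cy5, Cyp1a1 only in Cy3, and Aldh3a1 in neither dye.

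The same enquiry was made over lists of genes that surround the receptor, each gene read by its brightest kept probe. The further receptor targets had 11 of 16 genes measured. In HDC-S against HDC-M 4 were higher and 7 lower, with a median of -0.067, and 0 passed; in HDC-A against HDC-M 5 were higher and 6 lower, with a median of -0.0018, and 1 fell. The medians over all kept probes were 0.0092 and 0.0062. The gene that fell was Slc7a5, the large amino acid transporter that carries tryptophan and kynurenine into cells. Its log2 ratio was 0.46 and 0.47 in the 2 usable HDC-M pools, -0.39, -0.16 and -0.091 in HDC-A and -0.21, -0.10 and 0.17 in HDC-S. The spot of HDC-M replicate 3 was marked as an outlier and left out of the fit. The fall in HDC-A was by 0.68 (SE 0.13, adjusted p = 0.0453), and the HDC-S value of -0.51 did not pass (adjusted p = 0.118).

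Selenbp1, a selenium-binding protein gene of the same list, had the smallest p in HDC-S against HDC-M. Its log2 ratio was 1.85, 1.73 and 2.01 in HDC-M, 2.30, 2.66 and 2.42 in HDC-A and 2.79, 2.71 and 2.29 in HDC-S, so that all 6 modified pools lay above the HDC-M pools. The difference was 0.74 in HDC-S (95% interval 0.42 to 1.06, adjusted p = 0.061) and 0.60 in HDC-A (0.28 to 0.92, adjusted p = 0.0752). Its near-identical neighbour Selenbp2 gave 0.74 and 0.61, and the 2 cannot be taken as separate readings. Gsta2, a glutathione transferase with close paralogues that could share its probe, was 0.62 lower in HDC-A than in HDC-M (adjusted p = 0.0943).

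The chaperone list, the proteins that hold the unliganded receptor, had 6 of 6 genes measured and 0 passing in any comparison by the brightest probe. Stub1, a ubiquitin ligase, had the smallest p in HDC-S against HDC-M, where it was 0.19 lower (adjusted p = 0.177). Ptges3, which encodes p23, was 0.34 lower in HDC-S than in HDC-A (adjusted p = 0.0595). The dimmer probe of the HSP90 co-chaperone Cdc37 passed in HDC-S against HDC-A at 0.41 (SE 0.093, adjusted p = 0.0387). The median of the list was 0.015 in HDC-S and -0.15 in HDC-A against HDC-M.

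Of the bHLH-PAS relatives, which include other partners of ARNT, 5 of 13 genes were measured and 0 passed against HDC-M. The hypoxia factor subunit Hif1a was 0.073 lower in HDC-S (adjusted p = 0.732) and 0.20 higher in HDC-A (adjusted p = 0.254) than in HDC-M. The brightest probe of Clock, a circadian factor, was 0.37 lower in HDC-S than in HDC-A (SE 0.065, adjusted p = 0.015), with log2 ratios of -1.03, -0.90 and -0.95 against -0.55, -0.64 and -0.58. Of the enzymes that make tryptophan-derived ligands, 8 of 11 genes were measured and 0 passed in any comparison. Il4i1, an amino acid oxidase that yields receptor ligands, was 0.17 lower in HDC-S than in HDC-M (adjusted p = 0.495), and Kyat1, a kynurenine aminotransferase, 0.20 lower in HDC-A (adjusted p = 0.278).

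The NRF2 list, whose genes share regulation with Nqo1, had 10 of 10 genes measured and 0 passing in any comparison. Its leading genes were Gsr, glutathione reductase, 0.19 higher in HDC-S than in HDC-M (adjusted p = 0.199), and Me1, malic enzyme, 0.33 higher in HDC-A (adjusted p = 0.198). Without Keap1, which encodes the repressor of NRF2, 9 of 9 genes lay below the reference on every array with a usable value. Gclm had none in HDC-M replicate 2. The mean log2 ratios ran from -3.62 to -0.53. Keap1 itself lay above the reference on all 9 arrays, at 0.63 to 0.93. Of all 25750 probes with a value on every array, 23.1% lay below the reference on all 9. The low ratio of Nqo1 was thus shared by the genes of the list other than Keap1, and here too tumour against culture cannot be told apart from the dyes.

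Targets of the hypoxia factors, which also pair with ARNT, had 11 of 12 genes measured. By the brightest probe 0 passed against HDC-M, although 11 of 11 were higher in HDC-S, with a median of 0.39, and 9 of 11 in HDC-A, with a median of 0.19. Of all kept probes 53.2% and 51.9% were higher. Adm, which encodes the vasodilator adrenomedullin, was 1.21 higher in HDC-S (95% interval 0.39 to 2.04, adjusted p = 0.173) and 0.96 higher in HDC-A (0.13 to 1.79, adjusted p = 0.247). Pdk1, which limits pyruvate entry into mitochondria, was 0.35 higher in HDC-S (adjusted p = 0.151) and 0.011 lower in HDC-A (adjusted p = 0.972). The dimmer probe of Ldha, lactate dehydrogenase A, rose by 0.38 in HDC-S (SE 0.057, adjusted p = 0.0319), and its brighter probe gave 0.27 (adjusted p = 0.465). Ndrg1, a stress-responsive gene, rose by 1.27 in HDC-S against HDC-A (SE 0.25, adjusted p = 0.0221) but was 0.44 lower in HDC-A than in HDC-M (adjusted p = 0.450).

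**Figure D4:**
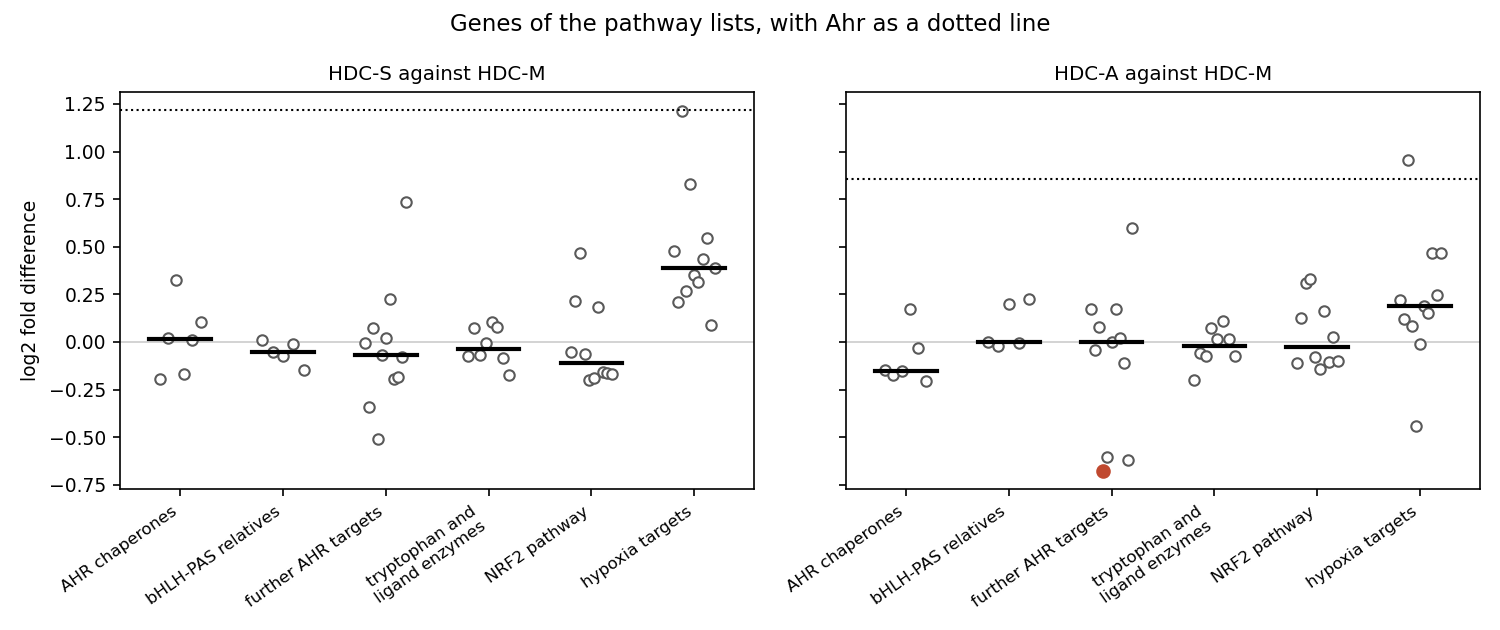
The log2 fold difference of each measured gene (brightest probe) is plotted by list for HDC-S and HDC-A against HDC-M, with a bar at the list median, the value of Ahr as a dotted line and a filled point where the adjusted p was under 0.05. Slc7a5 is the single filled point, and of the lists plotted the hypoxia targets have the highest medians, 0.39 in HDC-S and 0.19 in HDC-A.

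The genes whose pattern over the 9 pools was most like that of Ahr came from outside the pathway lists, apart from Selenbp1. Each log2 ratio was centred on its mean over the 9 arrays, and the root mean square difference from Ahr was ranked over 16961 named probes. The nearest were Scarf1, a scavenger receptor, at 0.188, Pygl, glycogen phosphorylase, at 0.206, Cited1, a transcriptional co-activator, at 0.208, Selenbp1 at 0.255 and Selenbp2 at 0.256. The centred values of Ahr themselves had a root mean square of 0.551. The differences of HDC-S and HDC-A from HDC-M were 1.11 and 0.50 for Scarf1, 1.104 and 0.72 for Pygl, and 1.06 and 0.50 for Cited1, values that the likeness to Ahr selected. For the receptor's own circle the distance was 0.429 for Tiparp, 0.503 and 0.625 for the Arnt probes, 0.537 for Cyp1b1, 0.543 for Nqo1 and 0.568 for Ahrr. Apart from Tiparp and the brighter Arnt probe, these lay close to or above the size of the Ahr profile. The measure is not scaled, so a probe with a small range lies near that size whatever its shape. This concerns the dim probes of Ahrr, Cyp1b1 and Arnt above all, and their distances do not show an unlike pattern.

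**Figure D5:**
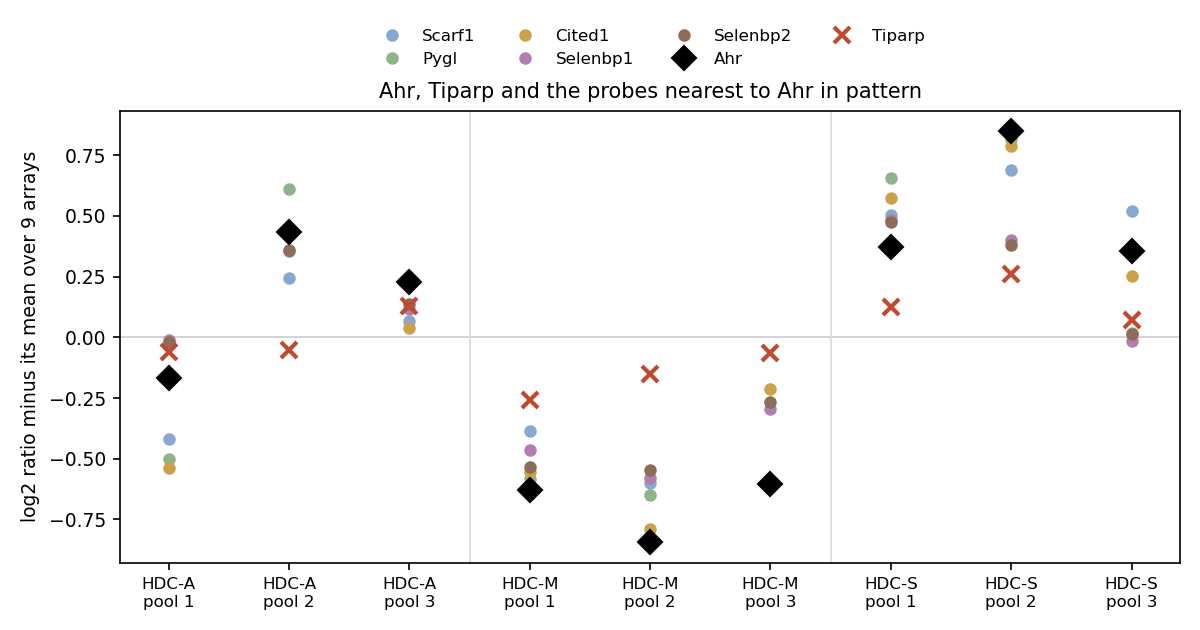
The log2 ratio minus its mean over the 9 arrays is plotted for Ahr (diamonds), Tiparp (crosses) and the 5 probes nearest to Ahr in pattern (circles), with 1 column for each pool. The nearest probes follow Ahr in its low HDC-M values. Tiparp is also lowest in the HDC-M pools, over a smaller range, but does not follow Ahr pool by pool. Within HDC-A, Ahr is highest in replicate 2 and Tiparp in replicate 3.

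Markers of other cells that a tumour can hold are given beside the Ahr values, and their part in those values was not tested. By the brightest probe of each gene, 0 markers passed against HDC-M. A dimmer probe of Dct, a melanin-forming enzyme of melanocytes, did pass in HDC-A against HDC-M, where it fell by 0.88 (adjusted p = 0.00406), and it was 0.81 higher in HDC-S than in HDC-A (adjusted p = 0.00234). The brightest Dct probe differed from HDC-M by 0.12 in HDC-A (adjusted p = 0.814), with 2 usable HDC-M pools. Its mean log2 intensity was 15.97, beside 14.67 for the dimmer probe. Saturation, which would compress its ratio, was not examined, so it cannot be set against the dimmer probe. Tyr, which encodes tyrosinase, fell by 0.48 in HDC-S against HDC-A (adjusted p = 0.0121). In that comparison 4 of the 6 measured melanocyte markers were higher and 2 lower by the brightest probe, with a median of 0.020. Macrophage markers (7 of 7 measured) had mean log2 ratios of 0.61 to 1.41 over the HDC-M pools. Over HDC-A they were 1.08 to 1.67 and over HDC-S 1.098 to 1.76. Against HDC-M, 7 of 7 were higher in HDC-S and 6 of 7 in HDC-A, beside 53.2% and 51.9% of all kept probes. The value of 0.61 was that of HDC-M replicate 3. Those of replicates 1 and 2, 1.32 and 1.41, lay within the ranges of both modified lines. Keratinocyte markers (7 of 7) had means of 2.24 to 3.42 in HDC-M, 1.47 to 2.76 in HDC-A and 0.090 to 1.51 in HDC-S. Of these, 7 of 7 were lower in both modified lines. Skeletal muscle markers (6 of 6) had 0.99 to 1.68 in HDC-M, 1.55 to 3.24 in HDC-A and 0.62 to 2.20 in HDC-S. Melanocyte markers (6 of 7) had 0.59 to 0.93 in HDC-M, 0.47 to 0.58 in HDC-A and 0.34 to 0.62 in HDC-S, and 3 of the 6 lay above the reference of cultured melanoma cells on all 9 arrays and 1 below it, where 36.8% of all probes lay above and 23.1% below. The means of fibroblast, endothelial and T and NK cell markers overlapped between all groups. The hypoxia list had means of 0.92 to 1.09 in HDC-M, 0.95 to 1.64 in HDC-A and 1.17 to 1.75 in HDC-S, and its part in the Ahr values was not tested either. Each mean leaves out genes without a usable spot on that array. These were Dct and Slc2a1 in HDC-M replicate 2, Krt14 in HDC-M replicates 2 and 3, and Col1a1 in HDC-A replicate 1. The melanocyte mean of 0.93 in HDC-M is therefore without Dct, and the Krt14 difference from HDC-M rests on 1 HDC-M pool.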

How the data were processed

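Cy5-labelled tumour RNA and a Cy3-labelled common reference were measured on 9 two-colour Agilent arrays, 3 pools a group. The authors deposited scanner files with spot intensity values (mean signal and local background in both dyes), made with Agilent Feature Extraction 8.5.1.1 per the file headers, and the column of other marks for background, outliers and spot type. The authors' value table holds log10 ratios of Cy5 over Cy3 equal, within 1e-06, to the deposited log10 ratio column at all 43790 spots, so its direction is settled, and no further centring was found. Genome build and probe mapping are not given in the sources used here.

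Mean signals were corrected with normexp (offset 50) and normalised by loess in limma 3.58.1 (R 4.3.3). Control and outlier spots got weight 0 in the loess and were dropped afterwards, and replicate spots were averaged. Probes with Cy5 well above background on at least 3 of 9 arrays were kept (26870). The Cy3 mark was not used, since 95.2% to 99.7% of the 314 negative controls carry it. Log2 ratios were fitted with lmFit and eBayes over all 9 arrays, and p-values were adjusted by Benjamini-Hochberg over all kept probes. The number of arrays limits the precision, and p-values measure the spread between pools of tumours from 1 line variant a group.

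The genes and lists were chosen with earlier results of these data known. Named are all 8 genes, the passing and leading genes of each pathway list, the 5 probes nearest to Ahr, and Hdc. Dct and Tyr are named beside their marker list, chosen after their values were seen. A leading gene of the chaperone list is not reported here. Of the kept probes 17852 had a symbol, by accession or description through a RefSeq table. The deviations of same-numbered pools correlated by 0.107, 0.548 and 0.135 between HDC-A and HDC-S, and by -0.189 to 0.151 in the pairs with HDC-M. A pairing of HDC-A with HDC-S is therefore possible but weak, and none with HDC-M was seen. The tests reported above use no pairing. Background correction, normalisation, filter, scan day, replicate block and single arrays were varied.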

Additional observations from a re-analysis of the deposited data

How the results depend on the processing

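Leaving out each of the 9 arrays in turn and 16 other settings were tried. The number of probes other than Ahr's that passed could be had in 15 of these (14 for the mean of both modified lines), without the second scan day alone, which gives no test, and with each array left out. It stayed at 0 in all 4 comparisons, except with array weights, where HDC-S against HDC-M had 1, Tiparp. Ahr stayed higher than HDC-M throughout, by 0.96 (second scan day alone) to 1.50 (scanner software's ratios) in HDC-S and by 0.63 (median centring) to 1.07 in HDC-A, and by 1.06 to 1.30 and 0.72 to 1.02 with arrays left out. Differences near 0 changed sign. Nqo1 in HDC-S against HDC-M became 0.091 without background correction, 0.082 with plain subtraction, 0.51 with scale normalisation, 0.062 with the scanner software's ratios and with the authors' value table, 0.097 for the first scan day and 0.047 for array weights. Median centring gave -0.10 for Tiparp and -0.12 for Ldha in HDC-S, and -0.051 for the brighter Arnt probe, -0.24 for Tiparp and -0.18 for Nqo1 in HDC-A against HDC-M, and left 29% and 30.9% of all probes higher. Scale normalisation gave -0.19 for Ldha in HDC-S, and -0.12 for Selenbp1 and -0.11 for Selenbp2 in HDC-A. Cy5 alone gave 0.0099 and 0.067 for the dimmer Arnt probe. The causes were not tested. With arrays left out, Cyp1b1 ran from -0.0081 to 0.17 in HDC-A and from -0.078 to 0.0098 in HDC-S, the brighter Arnt probe from -0.0036 to 0.10 in HDC-A, Nqo1 from -0.069 to 0.10 in HDC-S and Ahrr from -0.014 to 0.046 in HDC-S. Tiparp in HDC-S against HDC-A was -0.060 on the second scan day alone.

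The passing genes of the lists depended on the setting and on single arrays, and some counts of 0 rose. With array weights 2 further receptor targets passed in HDC-S against HDC-M and 2 in the mean of both modified lines. Hypoxia targets reached 2 in HDC-S against HDC-M with array weights, and chaperones 2 in HDC-S against HDC-A without background correction. These counts moved from 0 in 1 of 15, 4 of 14, 1 of 15 and 4 of 15 other settings. Slc7a5 passed in 8 of 15 other settings and with 1 of 9 arrays left out (HDC-S replicate 3), Cdc37 in 8 of 16 and 0 of 9, Clock in 11 of 16 and 5 of 9, Ndrg1 in 8 of 16 and 4 of 9, and Ldha in 5 of 16 and 3 of 9, where the second scan day alone gives no test. The number of all probes passing in HDC-S against HDC-M was 183, 5 with median centring, 719 with array weights and 4 without HDC-M replicate 2. In HDC-A against HDC-M it was 387, with a range of 2 to 648 over settings and of 21 (without HDC-M replicate 2) to 218 with arrays left out. In HDC-S against HDC-A it was 1412, with 4 to 1710 and 455 (without HDC-S replicate 3) to 1389, and in the mean of both modified lines 48, with 2 to 311 and 2 (without HDC-M replicate 2) to 43.

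In total 3 of 9 arrays correlated best with a pool of their own number. With the replicate number as a block, 0 of the 6 probes passed in any comparison, Tiparp in HDC-S against HDC-M had adjusted p = 0.153, 1126 probes passed in HDC-S against HDC-A with Cdc37, Clock and Ndrg1 still passing, and 70 probes passed in HDC-S and 193 in HDC-A against HDC-M. Ahr in HDC-S against HDC-A did not pass with that block either. Over the tested settings, arrays left out aside, its lowest adjusted p was 0.202, with array weights (limma). Weak signal over background limits Ahrr, Cyp1b1 and Arnt.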
